A study of Mus musculus with 10 samples.

Results

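The Kelch-BTB genes are the members of the mouse Klhl and Kbtbd families, taken here as RefSeq protein-coding genes whose symbol is Klhl or Kbtbd followed by a number. There were 46 such genes among 21900 protein-coding genes, 37 named Klhl and 9 named Kbtbd. A peak was given to a gene when it covered at least 50% of the shorter of peak and gene span, on the strand with more immunoprecipitated (IP) reads. By this rule 32 of the 46 genes held 60 of the 21195 peaks in the map.

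The map shows N6-methyladenosine (m6A), a methyl mark on adenosines in messenger RNA, in neural progenitor cells from the hypothalamus of mouse embryos at E14.5. All cells carried a floxed Mettl14 gene, which encodes a subunit of the m6A methyltransferase, and grew in medium with 20 ng/ml FGF2 and 20 ng/ml EGF. Lentivirus with EGFP and Cre recombinase gave Mettl14 knockout cells, lentivirus with EGFP alone gave control cells, and EGFP-positive cells were sorted after 72 hours. The labels list 4 IP libraries and 1 input library for each genotype. The promoter that drives Cre and the number of embryos were not stated in the sources used here. The peak table had 1 input column and 1 IP column with no genotype or library. Knockout was therefore not compared with control, and no value below has a replicate or an SD. The libraries that enter the columns are not named, so each value may mix control and knockout cells.

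Kelch-BTB proteins join a BTB domain, which binds the ubiquitin ligase scaffold cullin 3, to a Kelch repeat propeller, which holds a substrate. Each adaptor thus brings a chosen protein to the ligase, and substrates include mitotic kinases, signalling proteins and muscle filament proteins. The m6A mark is known for its effects on mRNA decay and translation, and it is often found near stop codons and in long exons.

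Over all peaks the table held 26.6 M input and 72.3 M IP reads (M, 1000000), and the depth of single libraries is unknown. The deposited log2 fold change was taken as IP over input, and its median over all peaks was 3.06 in the authors' deposited table. Markers of the labelled cells were checked by their peaks alone, since the map holds no expression level for a gene without a peak. For comparison, 44.2% of all protein-coding genes held a peak. Of 12 neural progenitor markers 8 held a peak, Nes, Sox2, Sox1, Sox9, Pax6, Hes1, Notch1 and Nr2e1. Vim, Fabp7, Hes5 and Msi1 held none, and the Nes and Sox2 peaks had only 63 and 10 input reads. Of 12 hypothalamic markers 4 held a peak, Nkx2-1, Six3, Tbx3 and Lhx2. Rax, Six6, Otp, Sim1, Nr5a1, Fezf1, Isl1 and Bsx held none. Peaks were found in 5 of 7 oligodendrocyte lineage markers, 4 of 6 astrocyte markers, 4 of 8 neuronal markers, 1 of 10 microglial, blood and vessel markers and 1 of 7 skeletal muscle markers. Summed input reads within peaks were highest for the oligodendrocyte lineage list (158602, against 28467 for the progenitor list). The part of other cell types in the Kelch-BTB peaks was not tested.

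Short peaks of 75 to 415 bases lay at an annotated transcription start in 4 Kelch-BTB genes. The starts of Kbtbd4 and Klhl5 were inside the peak, while those of Klhl23 and Kbtbd3 were 3 and 17 bases 5′ of it. The first 30 transcribed bases are shown because they are the only bases in or beside these peaks for which sequence was used here, and 27 of them lay inside the peak for Klhl23 and 13 for Kbtbd3. Sequences are from RefSeq on GRCm38.p6, 5′ to 3′ on the transcribed strand, in lower case with the letters GGAC, the core of the m6A consensus, in capitals. Of the 32 genes with a peak, 27 had an entry in the RefSeq table of start sites. Klhl24 had no entry and is not among the 4, though its gene span begins inside its 5′ peak of 225 bases. Kbtbd4 has 2 annotated starts, both inside the same peak of 415 bases. The coordinates of these stretches are chr2:90904740-90904769 and chr2:90905002-90905031 for Kbtbd4, chr2:69821941-69821970 for Klhl23, chr9:4309816-4309845 for Kbtbd3 and chr5:65131231-65131260 for Klhl5, all on the plus strand.
Kbtbd4, first start: ttcttccgggcGGACgcggggcgggaagca
Kbtbd4, second start: gggggggagacgatGGACggtttccttgga
Klhl23: gaagaggaagtgggggtagaaacccaagtt
Kbtbd3: tcagaaccgttttagctgctcactctggag
Klhl5: attgggatgaaagtaaatggagatatatat

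GGAC was present once at each Kbtbd4 start and in none of the other 3 stretches. The search read the transcribed strand only, since the mark is on RNA. Of 21263 start sites of protein-coding genes, 11.7% held GGAC in the same 30 bases. The Kbtbd4 peak began at the gene's first annotated base, and the authors' deposited table gave it 3.03 on the log2 scale, on 229 input and 643 IP reads. The Klhl23 peak of 100 bases rested on 28 input and 67 IP reads, with 2.93 in the authors' deposited table. At Kbtbd3 a peak of 75 bases, which shared 33 of the first 50 transcribed bases, held 842 input and 4373 IP reads and 4.75 in the authors' deposited table. For Klhl5 the start lay inside the gene, at 39.1% of its span from the 5′ end, and its peak of 225 bases had 63 input and 263 IP reads. The sequence under the other peaks was not used here.

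Peaks were present in 69.6% of the Kelch-BTB genes, and the share with a peak is given here by the role group assigned to each gene. By the same rule 44.2% of all protein-coding genes had a peak. Among genes whose span lay between 11477 and 50411 bases, the middle of the family's range, 18 of 22 Kelch-BTB genes (81.8%) and 50.4% of all protein-coding genes had one. All 6 genes placed under mitosis and cell division held a peak, as did all 12 placed under signalling, translation and membrane traffic. The name of the latter group is loose, since it also holds Klhl24, known for keratin turnover, and Kbtbd4, linked to the CoREST corepressor. None of the 8 genes placed under striated muscle did. Members without a settled role held a peak in 11 of 15 genes, and those of neurons, germ cells, B cells and retina in 3 of 5. The roles were assigned by hand with earlier results of these data known, so the counts by role are a description only. Whether a gene without a peak was transcribed in these cells is not known.

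**Figure D1:**
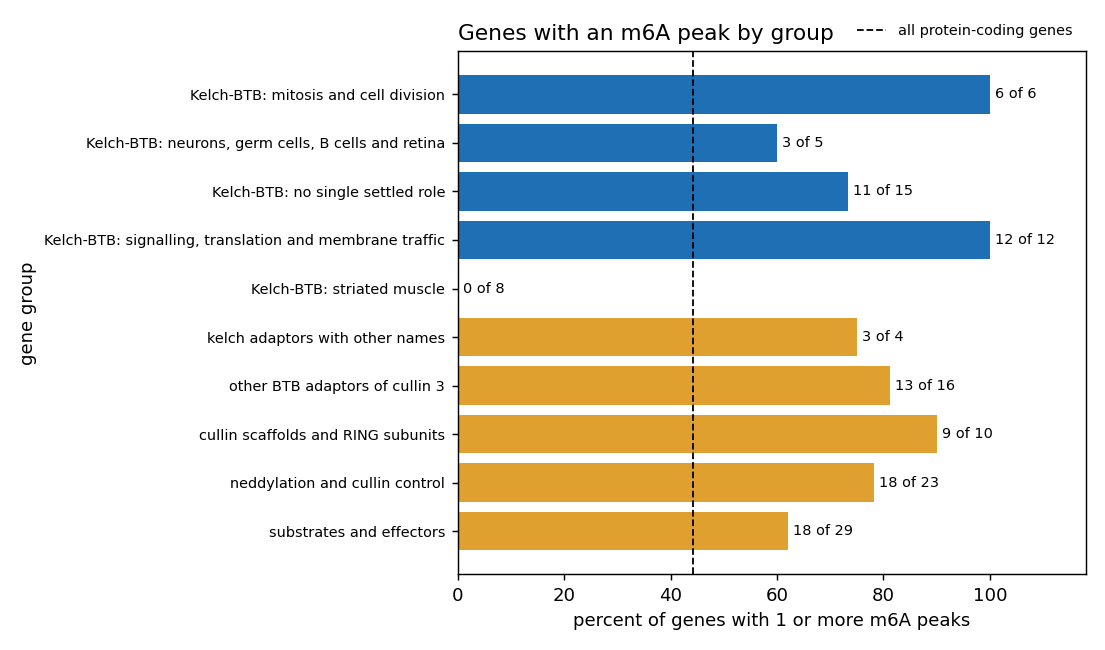
Percent of genes with 1 or more m6A peaks (horizontal axis) in the 5 role groups of the Kelch-BTB genes (blue) and in 5 lists of related genes (orange), with the count beside each bar. The dashed line is the 44.2% of all protein-coding genes. The muscle group stands at 0 of 8, and the mitosis and signalling groups at 6 of 6 and 12 of 12.

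The 8 muscle genes without a peak were Klhl30, Klhl31, Klhl33, Klhl38, Klhl40, Klhl41, Kbtbd12 and Kbtbd13. Of 7 skeletal muscle markers only Ttn held a peak, with 301 input reads. In bulk RNA such as this, fewer cells of a type and less RNA per cell cannot be told apart. Klhl40 and Klhl41 support thin filaments of the sarcomere, and Kbtbd13 is mutated in a nemaline myopathy. The other 6 members without a peak were Klhl1, an actin-binding protein of neurons, Klhl6, an adaptor of B lymphocytes, and Klhl4, Klhl14, Klhl34 and Klhl35. The median gene span was 24946 bases in the 32 genes with a peak and 13911 bases in the 14 without. By role, the median span was 12517 bases for the muscle group, 27963 for mitosis, 28735 for signalling, 24096 for genes without a settled role and 36558 for those of neurons, germ cells, B cells and retina. The part of gene span in these counts was not tested.

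The strongest peaks of the family ranged widely, around a median slightly above that of all genes with a peak. The strongest peak of each of the 32 genes had a median of 3.80 in the authors' deposited table (log2 scale), against 3.51 over all 9680 protein-coding genes with a peak. It was over 4 in 12 of the 32 genes (37.5%) in the authors' deposited table, against 30.6% of all genes with a peak. Over the 60 peaks the deposited median was 3.38, from 0.83 to 8.86, and the median ratio of IP to input reads was 2.65, against 2.35 over all peaks (0.5 added to each count). The peaks held a median of 661.5 input and 1536 IP reads, and 57 of 60 had at least 50 input reads. A single peak was found in 12 genes (37.5%, against 49.4% of all genes with a peak). There were 13 genes with 2 peaks, 6 with 3 and 1 with 4, so 21.9% held 3 or more, against 23.7% of all genes with a peak.

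**Figure D2:**
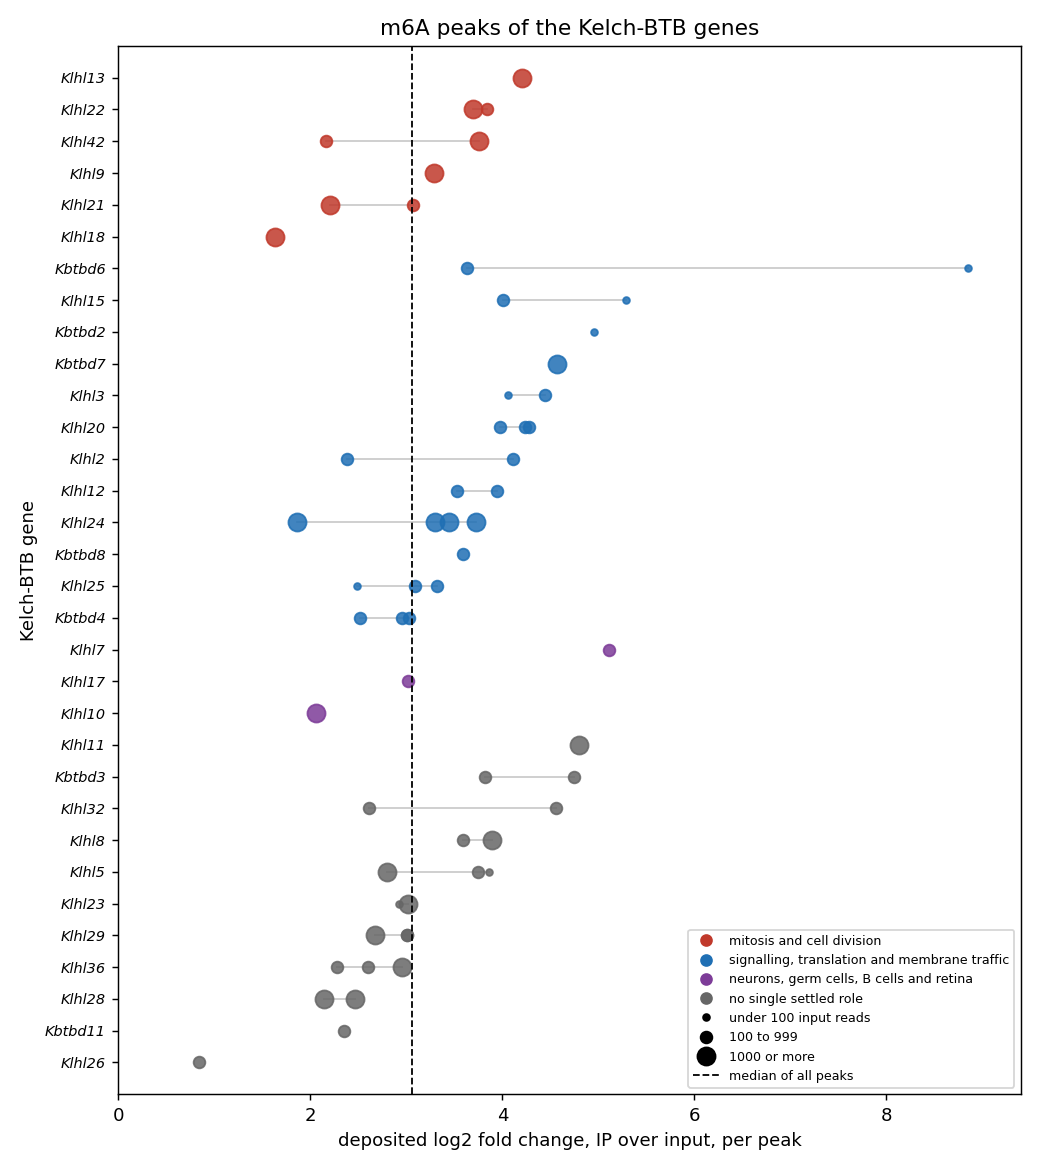
Deposited log2 fold change of IP over input (horizontal axis) for each of the 60 peaks of the 32 Kelch-BTB genes with a peak (rows), coloured by role, with dot size by input reads and a grey line joining peaks of a gene. The dashed line is the median of all peaks, 3.06. Kbtbd6 stands alone at 8.86 on a peak without input reads, and Klhl26 is lowest at 0.83.

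Adaptors of mitosis and cell division held some of the most abundant peaks of the family. Klhl9 and Klhl13 act together on the mitotic kinase Aurora B. The Klhl13 peak (chromosome X, 23228667 to 23247443, minus strand) had 7750 input and 19353 IP reads. The read ratio was 2.50 (exact 95% interval 2.43 to 2.56), and the authors' deposited table gave 4.20 on the log2 scale. It held 9.56% of all IP reads in Kelch-BTB peaks and carried 2 gene identifiers. The Klhl9 peak (chromosome 4, 88719942 to 88721891, minus strand) had 5220 input and 11311 IP reads, at a ratio of 2.17 (2.10 to 2.24) and 3.29 in the authors' deposited table. The intervals of both ratios did not overlap, and Klhl13 was the higher by either measure. The intervals cover counting error alone, so the spread between libraries is not in them.

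Klhl22, which acts on Polo-like kinase 1, had 2 neighbouring peaks of like strength. They held 112 input and 441 IP reads, and 2035 input and 7769 IP reads, with 3.84 and 3.69 in the authors' deposited table. Klhl42, linked to the microtubule-severing protein katanin, had a peak of 17226 bases with 2015 input and 8171 IP reads. Its second peak, nearer the 3′ end, had 543 and 754 reads, and the authors' deposited table gave 3.76 and 2.16 in this order.

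Klhl21, which directs Aurora B to the spindle midzone, had its most abundant peak near the 5′ end, at 5.82% of the span. That peak had 3275 input and 10180 IP reads, at a ratio of 3.11 (2.99 to 3.23), and only 2.21 in the authors' deposited table. Its interior peak had 477 and 1556 reads, a ratio of 3.26 (2.94 to 3.62), and 3.07 in the authors' deposited table. The intervals of these ratios overlapped, while the deposited values differed. Klhl18, an adaptor for Aurora A, was the weakest of the group, with 1629 input and 1886 IP reads (ratio 1.16, 1.08 to 1.24) and 1.63 in the authors' deposited table. Only 2.75% of genes with a peak had a lower strongest value.

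The 12 genes placed under signalling, translation and membrane traffic, Klhl24 and Kbtbd4 among them, held 26 peaks. The median of their strongest peaks was 4.19 in the authors' deposited table. For the mitosis group it was 3.52, for genes without a settled role 3.02 and for those of neurons, germ cells, B cells and retina 3.01 in the authors' deposited table. The WNK kinase adaptors Klhl2 and Klhl3 each had 2 peaks, the midpoint farthest from the 3′ end at 94.3% of the span. Klhl3 had 150 input and 1000 IP reads in its stronger peak (chromosome 13, 58003578 to 58004952, minus strand), a ratio of 6.67 (5.61 to 7.97), and 4.45 in the authors' deposited table. Its other peak had 51 and 250 reads and 4.06 in the authors' deposited table. The stronger Klhl2 peak had 746 input and 2188 IP reads (ratio 2.93, 2.70 to 3.19), and the weaker 538 and 666 (1.24, 1.10 to 1.39). They stood at 4.11 and 2.38 in the authors' deposited table.

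Kbtbd6 and Kbtbd7, which together target the Rac activator Tiam1, lie on chromosome 14 with 20795 bases between them and differed widely in reads. The Kbtbd7 peak (79427311 to 79429110, plus strand) had 1847 input and 11213 IP reads, at a ratio of 6.07 (5.78 to 6.38), and 4.57 in the authors' deposited table. The Kbtbd6 peak with the highest deposited value of the family (79452760 to 79453909, plus strand) had 0 input and 40 IP reads and 8.86 in the authors' deposited table. Set against a floor of 3 reads, IP in this peak was 13.3-fold higher, a figure that depends on the floor chosen. The exact 95% lower limit of the read ratio was 10.4. The second Kbtbd6 peak had 173 input and 308 IP reads, at a ratio of 1.78 (1.47 to 2.16), and 3.64 in the authors' deposited table. The genes are related in sequence, and the counting of reads that match both was not stated in the sources used here.

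Klhl15 and Kbtbd2 had high values on few input reads. Klhl15, which acts on a B subunit of protein phosphatase 2A, had peaks of 90 input and 530 IP reads (ratio 5.89, 4.70 to 7.45) and of 116 and 307 reads. They stood at 5.29 and 4.01 in the authors' deposited table, and 97.9% of genes with a peak had a lower strongest value than the former. Both Klhl15 peaks carried 2 gene identifiers. Kbtbd2, which targets the p85 subunit of phosphoinositide 3-kinase, had 49 input and 310 IP reads in a single peak of 18703 bases. Its ratio was 6.33 (4.67 to 8.74) and its value 4.96 in the authors' deposited table, and the peak also overlapped the protein-coding gene Gm10209.

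Klhl20, an adaptor for death-associated protein kinase and PML, had 3 peaks of even strength across its span. They held 908, 250 and 657 input and 3499, 1059 and 2172 IP reads from 5′ to 3′, and the authors' deposited table gave 4.24, 4.27 and 3.98. Klhl12, known for Dishevelled and for the COPII coat protein Sec31, had 2 short peaks with the nearer midpoint at 96.2% of its span from the 5′ end. The first had 678 input and 3219 IP reads (ratio 4.75, 4.37 to 5.17) and the second 666 and 1516 (2.28, 2.08 to 2.50). The authors' deposited table gave 3.94 and 3.53, and at like input the peak farther from the 3′ end held more IP reads.

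Klhl24, known for keratin turnover, was the only member with 4 peaks and had the most IP reads of the family, 30922 in all. From 5′ to 3′ its peaks had 4277, 3182, 2214 and 2288 input and 11146, 6111, 5046 and 8619 IP reads. The authors' deposited table gave 1.86, 3.45, 3.29 and 3.72 in that order. The peak at the 5′ end thus held the most reads and the lowest deposited value, at a read ratio of 2.61 (2.52 to 2.70) that was second among the 4. Klhl25, an adaptor for the translation inhibitor 4E-BP1, had 3 peaks in the 3′ part, at 3.32, 3.09 and 2.49 in the authors' deposited table. They held 786, 309 and 76 input and 3118, 975 and 158 IP reads, in the same order. Kbtbd8, which acts in neural crest specification, had 619 and 1413 reads in a peak of 8834 bases, with 3.59 in the authors' deposited table. Kbtbd4, linked to the CoREST corepressor, had 2 further peaks with 801 and 850 input and 1609 and 1731 IP reads, at 2.95 and 2.52 in the authors' deposited table.

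Klhl7 had the strongest peak among the 5 genes known from neurons, germ cells, B cells or retina. This gene, mutated in a retinal dystrophy, had a single peak (chromosome 5, 24159484 to 24159908, plus strand) with 550 input and 2679 IP reads. Its ratio was 4.87 (4.44 to 5.35) and its value 5.12 in the authors' deposited table, with a lower strongest value in 96.9% of genes with a peak. Klhl10, an adaptor of developing sperm, held a peak on 2585 input and 2960 IP reads, at a ratio of 1.15 (1.09 to 1.21), and 2.06 in the authors' deposited table. Klhl17, an actin-binding protein of synapses, had 290 and 838 reads and 3.01 in the authors' deposited table. The Klhl17 peak carried 2 gene identifiers.

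Klhl10 and its neighbour Klhl11 lie on opposite strands of chromosome 11 with 94 bases between them. Klhl11 had 1167 input and 7735 IP reads in a peak of 9610 bases, a ratio of 6.63 (6.23 to 7.05), and 4.80 in the authors' deposited table. With fewer than 50% of the input reads of Klhl10, Klhl11 had more IP reads, and the intervals of the ratios did not overlap. These intervals cover counting error alone and hold no spread between libraries.

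Members without a settled role spanned the whole range. Kbtbd3 had, beside its start peak, a peak of 20964 bases with 254 input and 552 IP reads and 3.82 in the authors' deposited table. Klhl32 had 299 input and 1459 IP reads in a peak of 775 bases (ratio 4.88, 4.31 to 5.54), and 130 and 164 reads in an adjoining peak of 20090 bases (1.26, 0.996 to 1.60). These stood at 4.56 and 2.61 in the authors' deposited table. Klhl8 had 1713 input and 6749 IP reads near its 3′ end and 739 and 2250 in a wider peak, at 3.89 and 3.59 in the authors' deposited table. Klhl5 had 3 peaks, from 5′ to 3′ with 63, 2980 and 184 input and 263, 5436 and 690 IP reads. The middle one, with the most reads, had the lowest value, 2.80 against 3.86 and 3.75 in the authors' deposited table.

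Klhl23 had its main peak on 1995 input and 3725 IP reads, with 3.02 in the authors' deposited table. The widest Klhl36 peak had 4497 input and 12009 IP reads, and its 3 peaks stood at 2.27, 2.96 and 2.60 from 5′ to 3′ in the authors' deposited table. Klhl29 had 3 peaks of 75 to 150 bases, with midpoints between 98.8% and 99.4% of a span of 298218 bases from its 5′ end. Their values ran from 2.68 to 3.01 in the authors' deposited table. From 5′ to 3′ they held 5861, 540 and 175 input and 12341, 778 and 196 IP reads. Their read ratios were 2.11 (2.04 to 2.17), 1.44 (1.29 to 1.61) and 1.12 (0.909 to 1.38) in the same order, and the deposited value of the last was the highest. Kbtbd11 had a single peak of 18872 bases with 240 and 441 reads and 2.35 in the authors' deposited table.

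Peaks with fewer IP than input reads were found in Klhl26 and Klhl28 alone within the family, 3 of 60 peaks (5.0%, against 11.4% of peaks assigned to protein-coding genes). Klhl26 had 538 input and 422 IP reads, at a ratio of 0.784 (0.689 to 0.893), and 0.83 in the authors' deposited table. Just 0.207% of genes with a peak had a lower strongest value. Klhl28 had 1277 and 811 reads (0.635, 0.581 to 0.694) in its 5′ peak and 3078 and 2782 reads (0.904, 0.858 to 0.952) in its 3′ peak. Yet the authors' deposited table gave 2.14 and 2.46. Depth is not taken into account in these ratios, so a value under 1 is no sign of depletion.

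**Figure D3:**
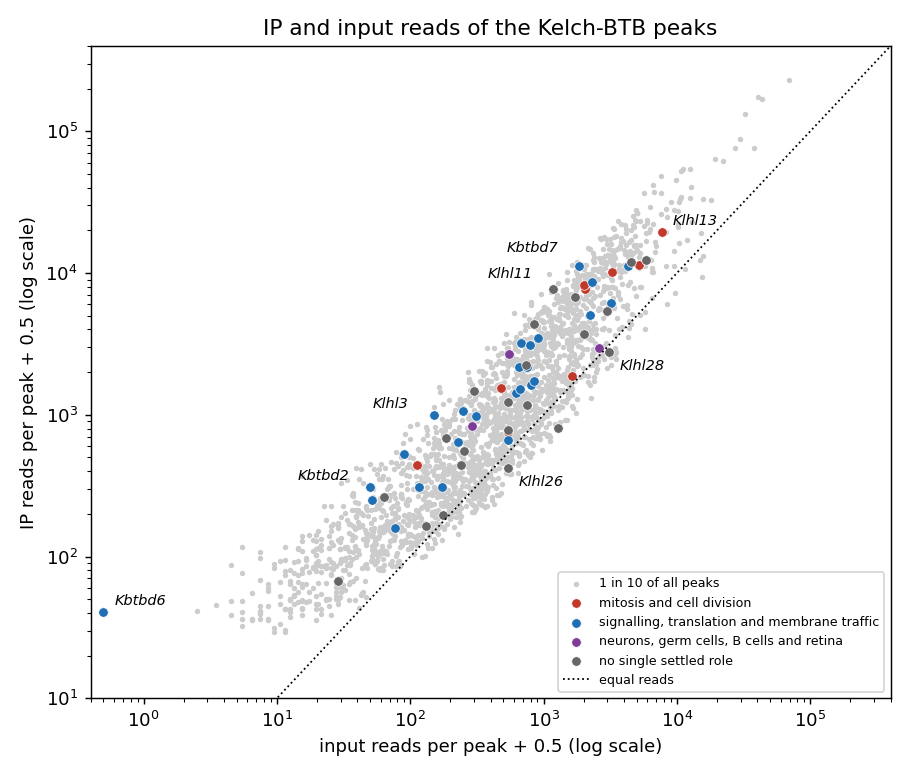
IP reads against input reads per peak, 0.5 added to each, both on log axes, for the 60 peaks of the Kelch-BTB genes (coloured by role) and 1 in 10 of all peaks (grey). The dotted line marks equal reads. Klhl26 and the Klhl28 peaks lie under it, Kbtbd6 lies at the left edge with 0 input reads, and Klhl13 is the peak with the most IP reads, 19353.

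The deposited value and the plain read ratio ranked the peaks alike in broad terms and diverged for single peaks. Across the 60 peaks, which are read from the same input and IP columns, Spearman's correlation between them was 0.837. It was 0.854 over all peaks. The deposited log2 fold change exceeded the log2 read ratio by 0.476 at the Klhl24 5′ peak and by 2.88 at the Klhl13 peak, the lowest and highest of the family, with a median of 1.94. Of the 20 genes with several peaks, 18 had the highest read ratio in the peak with the highest deposited value. The gap between the strongest and weakest peak of these 20 genes had a median of 0.757 in the authors' deposited table. It was over 1 in 7 of them, Kbtbd6, Klhl32, Klhl24, Klhl2, Klhl42, Klhl15 and Klhl5. For the counts of 18 and 7, the share over all genes with several peaks was not computed. The 5 genes with the most IP reads held 44.3% of those in Kelch-BTB peaks.

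The last 10% of the gene span held more Kelch-BTB peaks than any other such bin, as it did for peaks of all protein-coding genes. The midpoint fell in the last 10% of the span for 19 of 60 peaks (31.7%, against 36.9% of peaks of all protein-coding genes) and in the first 10% for 5 (8.33%, against 9.35%). The strongest peak was in that last 10% in 9 of 32 genes (28.1%, against 40.8% of all genes with a peak). Genes with a peak in the first 10% were Kbtbd3, Kbtbd4, Klhl21, Klhl23 and Klhl24. Between 30 and 40% of the span and between 40 and 50% there were 7 peaks each, 11.7%, against 5.15% and 5.73% of all. They included the single peaks of Kbtbd2, Kbtbd7, Kbtbd8, Kbtbd11, Klhl9, Klhl10 and Klhl11. A peak that covers most of a gene must have its midpoint near the middle of the span. The peaks in these bins covered 20964 of 22087 bases in Kbtbd3, 18703 of 20289 in Kbtbd2 and 18872 of 22309 in Kbtbd11. Others covered less, as in Klhl10 with 1704 of 15900 bases. The part of peak width in these bins was not tested. In the 20 genes with several peaks the strongest was the one closest to the 3′ end in 8. The same share over all genes with several peaks was not computed, so this count is a description only. Spans include introns, and the map gives each peak as 1 block, so the exon under a peak was not analysed here.

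**Figure D4:**
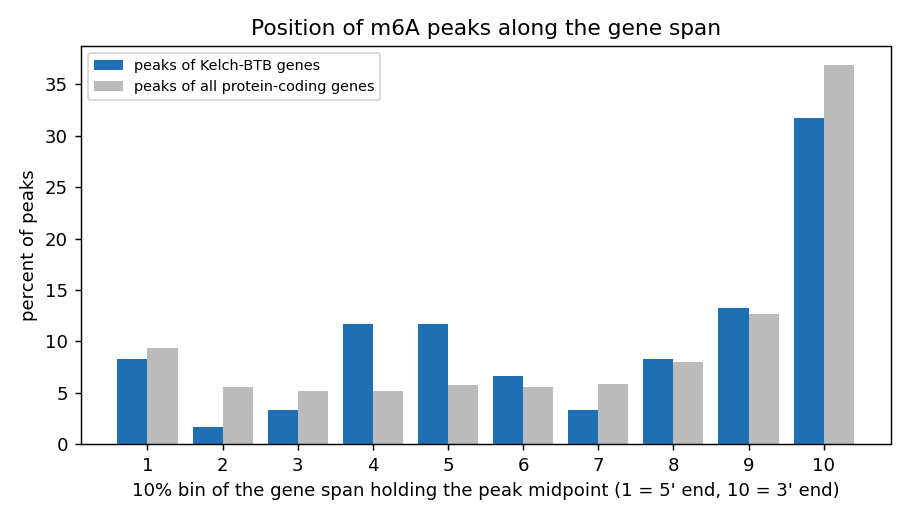
Percent of peaks (vertical axis) by the bin of 10% of the gene span that holds the peak midpoint, from the 5′ end (1) to the 3′ end (10), for the 60 peaks of Kelch-BTB genes (blue) and the peaks of all protein-coding genes (grey). The last bin holds 31.7% and 36.9%, and bins 4 and 5 hold 11.7% each of the Kelch-BTB peaks. Some peaks in bins 4 and 5 cover most of their gene, which places the midpoint near its middle.

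Wide peaks occurred in 11 Kelch-BTB genes. A span over 10000 bases was found for 11 of 60 peaks (18.3%, against 12.5% of peaks of all protein-coding genes), each in a different gene. The genes were Kbtbd2, Kbtbd3, Kbtbd11, Klhl8, Klhl13, Klhl15, Klhl20, Klhl24, Klhl28, Klhl32 and Klhl42, and the widest was the Klhl20 peak of 22328 bases. Among the 49 peaks of at most 10000 bases, 38.8% had their midpoint in the last 10% of the span, against 40.7% of such peaks of all protein-coding genes.

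Both Cul3 and Rbx1, the scaffold and RING subunit of the ligase that Kelch-BTB adaptors serve, held a peak. Of 10 cullin scaffolds and RING subunits of the cullin ligases as a whole, 9 had one, against 44.2% of all protein-coding genes. The median of their strongest peaks was 2.90 in the authors' deposited table, below the 3.51 of all genes with a peak. Cul3, the scaffold that binds BTB domains, had 1023 input and 2307 IP reads (ratio 2.26, 2.09 to 2.43) and 4.09 in the authors' deposited table. Its RING partner Rbx1 had 851 and 1191 reads (1.40, 1.28 to 1.53) and 2.40 in the authors' deposited table. Among genes of neddylation and cullin control 18 of 23 held a peak, again against 44.2%, with a median of 3.36 against 3.51 in the authors' deposited table. Uba3, a subunit of the NEDD8-activating enzyme, had 937 input and 3276 IP reads and 4.73 in the authors' deposited table. Senp8, the NEDD8 protease, had 886 and 4689 reads and 4.98 in the authors' deposited table. Cand1, which exchanges substrate receptors, had 819 and 562 reads and 1.44 in the authors' deposited table.

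Kelch adaptors with other names held a peak in 3 of 4 genes, Keap1, Enc1 and Ipp, and not in Ivns1abp. Enc1, an adaptor of the nervous system, had 4945 input and 23557 IP reads (ratio 4.76, 4.62 to 4.91) and 3.95 in the authors' deposited table. Keap1, which controls the oxidative stress factor Nfe2l2, had 185 and 230 reads and 1.70 in the authors' deposited table. Among 16 other BTB adaptors 13 held a peak (against 44.2% of all genes), with a median of 2.54 against 3.51 in the authors' deposited table, and the strongest was Rhobtb3 with 3430 input and 17412 IP reads.

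Among 29 substrates and effectors of the family 18 held a peak (62.1%, against 44.2% of all protein-coding genes). Their median was 3.28 in the authors' deposited table, below the 3.51 of all genes with a peak. The 5 highest and the 4 lowest are given. Grik2, a kainate receptor subunit, had 220 input and 895 IP reads and 4.91 in the authors' deposited table. Pik3r1, the p85 target of Kbtbd2, had 3502 input and 27122 IP reads (ratio 7.74, 7.48 to 8.02) and 4.71 in the authors' deposited table. Tiam1, the target of Kbtbd6 and Kbtbd7, had 167 and 977 reads (5.85, 4.96 to 6.94) and 4.24 in the authors' deposited table. Wnk1, a target of Klhl2 and Klhl3, had 7 peaks, the strongest at 4.72 in the authors' deposited table. Dapk1, the target of Klhl20, had 258 and 1107 reads and 4.32 in the authors' deposited table. The lowest were Aurka at 1.62, Sec31a at 2.08, Aurkb at 2.47 and Rcor1 at 2.67 in the authors' deposited table. The 11 without a peak were Plk1, Katna1, Wnk4, Dvl1, Dvl2, Dvl3, Ppp2r5b, Krt14, Pdcd6, Neb and Lmod3.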

How the data were processed

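Polyadenylated RNA from sorted cells was fragmented to about 80 nt and enriched for m6A with an antibody kit, per the labels' protocols. Tools named in the submitters' processing notes were Trimmomatic 0.32, STAR 2.5.2a and bcl2fastq 2.17.1.14, with the builds GRCm38.p6 and GRCh38.p13. Which caller and counter made the peaks, and whether counting used strand, was not stated in the sources used here. Per the file headers, the deposited counts are reads per peak in an input column and an IP column, as whole numbers. Sums and rounded means over libraries could not be told apart. The deposited log2 fold change, the deposited p-values and the deposited score, which equalled minus log2 of the adjusted p in all 21195 rows (tolerance 1e-06), are the authors' own.

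Peaks were joined to the spans of RefSeq protein-coding genes on GRCm38.p6 with Python 3.11.15 and pandas 2.3.3, and the join was tested on simulated coordinates. Peak starts were shifted by 1 base to count from 1. For all 27 members with a peak and an annotated strand, the strand kept was the annotated one. Intervals beside ratios are exact Clopper-Pearson 95% intervals (SciPy 1.17.1). They treat each value as a plain count. They cover counting error alone, as PCR copies that carry no molecular identifier are not separate molecules. A peak with 0 input reads was set against a floor of 3 reads. No test was made, since each peak has 1 input value and 1 IP value, with no library named. The planned comparison of knockout with control (a count model, with another tool, the replicate block and left-out replicates as alternatives) was not run for the same reason.

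The members, role groups and lists were chosen with earlier results of these data known. One gene of the lists is not reported here and was left out of their counts. Members were named with full values if they were among the 10 highest by strongest log2 fold change or by IP reads or the 5 lowest, or had 3 or more peaks, a peak with fewer IP than input reads or a peak over 10000 bases. The others with a peak were named with their values too, and those without by name. Alternatives covered the overlap, the strand, filters on input reads, adjusted p and log2 fold change, the pseudocount, the end bin and the background genes.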

Additional observations from a re-analysis of the deposited data

Results flagged for a closer look

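Peaks on the strand opposite to the one analysed lay within 3 Kelch-BTB genes, and these values entered no comparison above. In Klhl21 a minus-strand peak (chromosome 4, 152009184 to 152009619) held 269 input and 1785 IP reads. The read ratio was 6.64 (exact 95% interval 5.83 to 7.57), and the authors' deposited table gave 3.37 on the log2 scale. It shared 350 bases with the plus-strand peak near the 5′ end, which had 3275 input and 10180 IP reads. In Kbtbd4 a minus-strand peak had 861 input and 855 IP reads and 1.47 in the authors' deposited table. It shared 524 bases with a plus-strand peak of 850 input and 1731 IP reads. In Kbtbd11 there were 2 minus-strand peaks, with 135 input and 200 IP reads and with 15 and 38 reads, at 2.34 and 1.90 in the authors' deposited table. All 4 carried a gene identifier other than that of the plus-strand peaks.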

How the results depend on the processing

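Of 51 values recomputed under alternatives, 48 stayed within the limits set. Taking the annotated strand changed no value, as it was already the strand kept in all 27 members with a peak and an annotated strand. An overlap rule set on the peak alone changed no value either. The count of 48 includes these unchanged values, so it is no measure of stability. The limits were a factor of 1.5 for counts and the 95% interval of the reported value for medians and the share. With no replicate, they hold no spread between libraries. These limits are wide: the fall from 32 to 22 genes with a peak, when a peak had to exceed the median deposited value of all peaks, lies within them. Under that setting 35 peaks were left and the median read ratio was 3.92, both outside the limits. The count of genes was 31 or 32 under the other alternatives. With the last 20% of the span in place of the last 10%, 45.0% of peaks lay at the 3′ end, which was outside the limits too. A wider bin cannot hold fewer peaks, so this shift does not measure stability. The added bin, from 80 to 90% of the span, held 13.3% of Kelch-BTB peaks and 12.7% of peaks of all protein-coding genes. The median of the strongest peaks ran from 3.38, with each gene's peaks averaged, to 4.16. Without Kbtbd6, chosen after the data were seen, it was 3.76. Against protein-coding genes within the full range of the members' spans, the background share with a peak was 49.3%. No paired analysis was possible because no column of the deposited files belongs to a library or replicate, and for the same reason no replicate could be left out. Input reads limit Kbtbd6, Klhl23 and Kbtbd2 most, with 0, 28 and 49 in a peak.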
